A study of Mus musculus with 3 samples.

Results

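The genes described here are 10 transcription regulators that drive or restrain the making of red cells, Gata1, Gata2, Tal1, Lmo2, Ldb1, Zfpm1, Klf1, Nfe2, Lyl1 and Myb. They were taken by gene symbol from a list, and each has 1 of the 23282 entries of the expression files. Expression was measured by RNA sequencing in 3 libraries of bone marrow from wild type C57BL/6 mice, an inbred laboratory strain. The mice were male and 6 weeks old, were given sterile water by oral gavage for 28 days, and were harvested at day 29, and the marrow cells had their red blood cells lysed. The series sets this vehicle against Asari Radix et Rhizoma, a herbal root drug, and since herb-treated mice are not analysed here, nothing below compares treatments. The labels do not say whether the libraries came from separate mice, and the p-values then measure only the spread between these samples, which may be technical.

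GATA1 is the DNA-binding factor that switches on red cell genes, and it takes over sites that GATA2 holds in stem cells and early progenitors as a cell matures. On DNA, a GATA factor works in a complex with the helix-loop-helix factor TAL1, the bridging protein LMO2 and LDB1, which pairs with itself and can bring distant sites together. In whole marrow these genes are not specific to red cell precursors: megakaryocytes, eosinophils, basophils, mast cells and stem cells use some of them too. In such bulk samples, fewer cells of a type and less RNA per cell cannot be told apart.

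All 10 genes had reads in every library, from 264 reads in total for Ldb1 to 6298 for Myb, and all passed the minimum of 30 reads for testing. The libraries held 8104828 to 9168435 gene-assigned reads, and levels are given as CPM, reads per 1000000 of these. The precursor ribosomal RNA Rn45s and the globins took 28.8% of reads in replicate 1 and 35.3% and 33.6% in replicates 2 and 3. Scaled by library totals, replicate 1 had its median gene 0.15 log2 units over the rest; this shift was 0.01 with TMM scaling, which sets the libraries to a common trimmed mean, so each highest or lowest library was checked on both scales. A gene was called when its reads differed between libraries past counting noise (binomial test, exact and two-sided, run for each library against the rest, Benjamini-Hochberg adjusted over the 11833 genes tested, threshold 0.05). Counting intervals are exact 95% Clopper-Pearson intervals and cover counting error only.

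Of the 10 regulators 7 were called, against 56.5% of all genes tested, and with TMM scaling also 7, against 52% of all genes. The median coefficient of variation (CV) of the 10 over the libraries was 12.8%, against 17.1% over all genes tested. Counting alone gives a median CV of 8.22% over all genes tested. For the 10 it gives from 2.18% (Myb) to 10.7% (Ldb1). Neither the CV nor the share called was compared at like depth, here or for the lists below. Gata2, Klf1, Zfpm1, Tal1, Lmo2, Nfe2 and Myb were the called genes, and Gata1, Lyl1 and Ldb1 did not pass the test. Gata2 alone passed under all 10 alternative settings. The count fell to 6 without replicate 1, and to 4 without replicate 2 and 4 without replicate 3, where 34.8%, 39% and 38.5% of all genes were called.

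Upstream sequence is shown for 4 of the genes: Gata1 and Gata2, whose ratio differed most between libraries, and Klf1 and Zfpm1, which both had their highest level in replicate 2. The sequences are RefSeq windows on GRCm38.p6, the assembly also called mm10, read 5′ to 3′ on the gene's strand up to the annotated start, and for Klf1 up to its earlier start in GENCODE M21. Capitals mark GATA words (GATA with A or T before it and A or G after it) and the CACC box CCNCNCCC, the kind of site KLF factors bind, on either strand. Gata1 is at chrX:7967911-7968160, minus strand, Gata2 at chr6:88193641-88193890, plus strand, Klf1 at chr8:84901732-84901927, plus strand, and Zfpm1 at chr8:122281891-122282140, plus strand. GENCODE M21 also has a Gata1 transcript that starts farther upstream, so the Gata1 stretch lies within the span given for the gene below, outside its annotated exons.
Gata1: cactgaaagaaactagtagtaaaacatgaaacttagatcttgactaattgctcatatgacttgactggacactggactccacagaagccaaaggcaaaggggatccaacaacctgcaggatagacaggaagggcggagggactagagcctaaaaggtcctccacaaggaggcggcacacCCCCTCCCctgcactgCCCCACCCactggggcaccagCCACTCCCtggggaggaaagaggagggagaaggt
Gata2: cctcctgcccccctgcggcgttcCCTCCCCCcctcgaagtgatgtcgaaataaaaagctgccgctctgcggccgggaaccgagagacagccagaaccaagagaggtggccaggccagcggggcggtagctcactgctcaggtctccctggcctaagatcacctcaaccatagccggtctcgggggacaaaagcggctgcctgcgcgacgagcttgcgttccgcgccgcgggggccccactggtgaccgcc
Klf1: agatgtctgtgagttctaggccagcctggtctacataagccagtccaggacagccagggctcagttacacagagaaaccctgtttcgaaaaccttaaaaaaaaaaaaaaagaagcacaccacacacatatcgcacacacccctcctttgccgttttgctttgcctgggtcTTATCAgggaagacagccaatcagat
Zfpm1: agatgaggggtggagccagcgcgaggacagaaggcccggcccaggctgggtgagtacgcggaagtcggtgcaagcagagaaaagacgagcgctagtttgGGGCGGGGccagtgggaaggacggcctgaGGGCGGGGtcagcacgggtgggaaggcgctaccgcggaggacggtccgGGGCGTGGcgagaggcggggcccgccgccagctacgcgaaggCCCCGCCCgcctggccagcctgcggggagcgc
Of these stretches that of Klf1 held a GATA word, TTATCA on the strand shown, beginning 80 bases before the RefSeq start. The Gata1 stretch held 3 CACC boxes, that of Gata2 1 and that of Zfpm1 4. RefSeq windows were at hand for 8 of the 10 genes (12 windows of 300 bases, which also take in the 50 bases after the start), and 3 of the 12 windows, 1 each of Klf1, Tal1 and Ldb1, held a GATA word, against 29.8% of 32851 windows of all genes. CACC boxes stood in 10 of the 12 windows, against 49.5% of all windows. The word is rich in G and C, and the 250 bases before the start held 48.8% to 81.2% G and C in these windows. The share in windows of like content was not tested. The E-box CANNTG, the word that TAL1 and its partners read, stood in 7 of the 12, against 72.3%. These are matches of letters, not measured binding.

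Gata2 differed between the libraries past counting noise, and Gata1 did not pass the test. Gata1 (chromosome X, 7959260 to 7978071, minus strand) is required for red cells and megakaryocytes and had 28.1, 32.1 and 28.7 CPM in replicates 1, 2 and 3, from 258, 260 and 262 reads. On library totals its CV of 7.21% was close to the 6.20% that counting alone gives at this depth (adjusted p = 0.418, exact binomial test). Its range was 1.14-fold, or 1.24-fold with TMM scaling (adjusted p = 0.126, exact binomial test). Under the 10 alternatives its adjusted p ranged from 0.0848 to 0.916. Gata2 (chromosome 6, 88193891 to 88207032, plus strand), the stem and progenitor factor, had 17.1, 12.2 and 7.44 CPM, from 157, 99 and 68 reads. No counting intervals of Gata1 and Gata2 overlapped within a library, and Gata2 was highest in replicate 1 and lowest in replicate 3 on both scales. Its range of 2.30-fold, or 2.06-fold with TMM scaling, was the widest of the 10 genes (adjusted p = 2.49e-06, exact binomial test, with 5.00e-08 to 0.0256 under the alternatives). As deposited by the authors, the log2 values were 4.70, 5.01 and 4.88 for Gata1 and 4.02, 3.69 and 3.06 for Gata2.

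The ratio of Gata1 to Gata2 reads, which does not depend on the size of a library, was 1.64 in replicate 1 (95% interval 1.34 to 2.02), 2.63 in replicate 2 (2.08 to 3.34) and 3.85 in replicate 3 (2.94 to 5.11). Gata1 thus had more reads in 3 of 3 libraries, with a mean log2 ratio of 1.35 ± 0.62 (SD, n = 3). The interval of replicate 1 lay apart from those of the other libraries, and those of replicates 2 and 3 overlapped. The highest ratio was 2.34 times the lowest, the widest spread of the 11 ratios formed among these genes. On library totals, the CV of Gata2 was 39.5% and that of Gata1 7.21%. For a sign of a ratio over 3 libraries, the two-sided exact sign-flip permutation test cannot go below p = 0.25, the value it gave here.

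Cell types that use Gata2 were read from marker lists beside it. Mast cell and basophil genes summed to 610, 404 and 468 CPM in replicates 1, 2 and 3. Most of each sum came from the gene Hdc, at 427, 273 and 302 CPM. Of 7 tested genes 5 were called, against 56.5% of all genes. In replicate 2, 4 of the 7 were lowest on both scales, against 37.6% of all genes, or 34.8% with TMM scaling. The basophil protease gene Mcpt8 had 63.3, 38.1 and 48.9 CPM and the mast cell carboxypeptidase gene Cpa3 30.2, 15.3 and 23.9 CPM, both highest in replicate 1 and lowest in replicate 2. Other genes of the list differed from these: the receptor genes Ms4a2 and Kit had 6.44, 9.99 and 9.30 CPM and 17.2, 22.6 and 20.1 CPM, lowest in replicate 1. Kit is also on the stem and progenitor list. The connective tissue mast cell protease genes Cma1, Tpsb2 and Tpsab1 had 4, 1 and 2 reads in total. Stem and progenitor genes summed to 322, 337 and 290 CPM, and 5 of 14 tested were called, against 56.5% of all genes. The count was 2 of 13 without replicate 1, 3 of 13 without replicate 2 and 3 of 14 without replicate 3. The shares of all genes were 34.8%, 39% and 38.5% in that order. The mast cell and basophil count was 4 of 6 without replicate 1, 3 of 6 without replicate 2 and 6 of 6 without replicate 3, beside the same shares. Stroma and endothelium genes summed to 497, 463 and 375 CPM. Most of these sums came from Vcam1, at 184, 194 and 157 CPM, and Cxcl12, at 139, 134 and 110 CPM. In replicate 3, the library with the least Gata2, 7 of 8 tested genes were lowest on both scales. The share of all genes was 42.4%, or 32.7% with TMM scaling. Of these 8 genes 6 were called, against 56.5% of all genes, and 2 without replicate 3, against 38.5%. No gene of these 3 lists was at 0 reads over the 3 libraries, and the part of these cells in the Gata2 values was not tested.

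**Figure D1:**
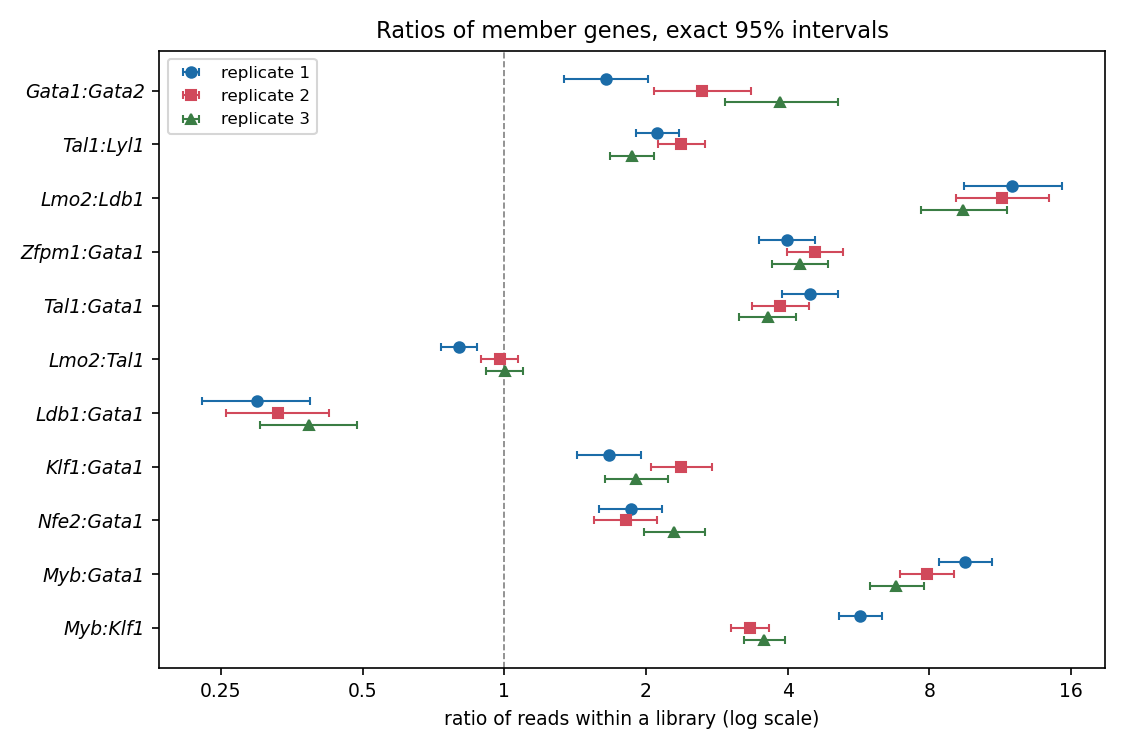
Ratios of reads between pairs of the 10 genes within each library (x axis, log scale, no unit), with exact 95% intervals that cover counting error only; the dashed line marks equal reads. The Gata1:Gata2 ratio goes from 1.64 in replicate 1 to 3.85 in replicate 3, while the 3 Zfpm1:Gata1 intervals overlap.

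Zfpm1 (chromosome 8, 122282141 to 122337251, plus strand) encodes FOG1, a zinc finger protein that binds GATA1 and is needed for its work in red cells and megakaryocytes. It had 112, 146 and 122 CPM in replicates 1, 2 and 3. The level of replicate 2 lay above the others, and its counting interval of 138 to 155 CPM did not reach theirs (adjusted p = 2.20e-08, exact binomial test). Without replicate 2, Zfpm1 no longer passed the test (adjusted p = 0.122, with 4.06e-13 to 0.122 over the alternatives, exact test). Relative to Gata1, Zfpm1 had 3.98, 4.57 and 4.24 times the reads, and the 3 intervals overlapped, from 3.47 at the lowest bound to 5.24 at the highest. This cofactor ratio had the smallest spread of the 11 ratios, 1.15-fold between the highest and lowest library.

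Tal1 (chromosome 4, 115056426 to 115071755, plus strand) binds E-boxes in a pair with an E protein, and its 3 libraries stood at 125, 124 and 104 CPM (exact binomial test, adjusted p = 4.68e-05). Replicate 3 was lowest on both scales, and replicate 2 became the highest with TMM scaling. Without replicate 3, Tal1 no longer passed the test (adjusted p = 0.845, with 5.16e-05 to 0.845 over the alternatives, exact test). Lyl1 (chromosome 8, 84701457 to 84704715, plus strand), a close relative of Tal1 that can stand in for it in stem cells, had 59.2, 51.9 and 55.7 CPM and did not pass the test (adjusted p = 0.314, and 0.101 to 1 under the alternatives, exact test). Its CV of 6.55% was the lowest of the 10. Tal1 had 2.12, 2.38 and 1.87 times the reads of Lyl1, and only the intervals of replicates 2 and 3 lay apart. The Lyl1 gene lies inside the span of Nfix, a gene on the other strand with 836, 712 and 768 reads, and without a stated strand setting reads of the 2 could not be told apart where they overlap, which is 4 exonic bases in GENCODE M21.

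Lmo2 (chromosome 2, 103957986 to 103981878, plus strand), the bridge between the GATA factor and TAL1, had 100.5, 121 and 104 CPM. Replicate 2 lay highest on both scales (adjusted p = 0.000339, exact binomial test). Without that library the gene no longer passed the test (adjusted p = 0.551, with 3.38e-07 to 0.551 over the alternatives, exact test). Ldb1 (chromosome 19, 46031570 to 46045214, minus strand), which LMO2 binds, had 8.40, 10.6 and 11.1 CPM from 77, 86 and 101 reads, the lowest mean level of the 10 genes, by reads and per kilobase. Its libraries overlapped in their counting intervals, and it did not pass the test (adjusted p = 0.249, and 0.0510 to 0.900 under the alternatives, exact test). Lmo2 reads were 12.0, 11.4 and 9.44 times those of Ldb1, with intervals that overlapped between all libraries. The Lmo2 to Tal1 ratio was 0.802, 0.978 and 1.003, and the interval of replicate 1 (0.734 to 0.875) lay below the others. Part of Ldb1, 177 exonic bases, overlaps Pprc1 on the other strand, which had 57, 66 and 81 reads.

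The partners of the complex were read from a list of 33 cofactor genes, all of them measured, of which 21 were called, against 56.5% of all genes, and 20 with TMM scaling, against 52%. Their median CV was 9.48%. Their summed level was 4148, 3924 and 3735 CPM in replicates 1, 2 and 3, with 18 genes highest in replicate 1 against 49.2% of all genes, and 6 with TMM scaling against 33.2%. Without replicates 1, 2 and 3 in turn, 14, 18 and 10 of the 33 were called, against 34.8%, 39% and 38.5% of all genes. The chromatin remodelling ATPase genes Chd4 and Smarca4 and the repressor gene Klf3 had the most reads, at 346 ± 13.0, 334 ± 40.4 and 246 ± 12.7 CPM (SD, n = 3). Among the E proteins that pair with TAL1, Tcf3 had 121, 110 and 87.7 CPM, Tcf12 96.5, 77.2 and 62.6 CPM and Tcf4 240, 240 and 210 CPM. All 3 were called, against 56.5% of all genes (exact binomial test, adjusted p = 6.57e-10, 1.26e-11 and 1.96e-05 in that order). Like Tal1, they had their lowest level in replicate 3 on both scales. So did 42.4% of all genes, or 32.7% with TMM scaling. Without replicate 3, Tcf3 and Tcf4 no longer passed the test (adjusted p = 0.0785 and 0.988, exact test), while Tcf12 did (0.000143).

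Ssbp3 encodes a protein that protects LDB1 from degradation. Its level was 73.1, 84.9 and 87.1 CPM, like that of Ldb1 lowest in replicate 1 (exact binomial test, adjusted p = 0.00341). Its difference was not called without replicate 1 (adjusted p = 0.749, exact test). Cbfa2t3 encodes ETO2, a corepressor held in the complex, and had 144, 139 and 132 CPM (adjusted p = 0.238, exact test). Spi1, which encodes PU.1, an opponent of GATA1 in the choice between myeloid and red cell fate, had 233, 162 and 252 CPM. It was lowest in replicate 2, where Zfpm1 and Klf1 had their highest values (adjusted p = 2.84e-37, exact binomial test, and 0.0275 without replicate 2). Gata1 itself had its highest level in replicate 2 on both scales but did not pass the test. A link between Spi1 and these genes was not tested. The 10 neutrophil genes read beside Spi1 were all called, against 56.5% of all genes. All 10 were lowest in replicate 2 on both scales, against 37.6% of all genes, or 34.8% with TMM scaling. They summed to 86858, 67179 and 89308 CPM, and the part of neutrophils in the Spi1 value was not tested.

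Klf1 had the second widest range of the 10 genes. Klf1 (chromosome 8, 84901928 to 84905291, plus strand) encodes the red cell Krüppel-like factor that opens the adult β-globin gene, and had 47.0, 76.3 and 54.7 CPM in replicates 1, 2 and 3, from 431, 618 and 500 reads. The counting interval of replicate 2, 70.4 to 82.5 CPM, lay above both others, and the range was 1.62-fold, or 1.76-fold with TMM scaling (adjusted p = 1.0e-12, exact binomial test). Replicates 1 and 3 alone did not pass the test (adjusted p = 0.0544, with 1.32e-16 to 0.0544 over the alternatives, exact test). Klf1 had 1.67, 2.38 and 1.91 times the reads of Gata1, with the intervals of replicates 1 and 2 apart. The Klf1 stretch printed above is the one of the 4 with a GATA word.

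Nfe2 (chromosome 15, 103248212 to 103258403, minus strand) encodes the larger subunit of NF-E2, which works with a small MAF protein in red cells and in platelet release. It had 52.2, 58.1 and 65.9 CPM, highest in replicate 3 and lowest in replicate 1 on both scales (adjusted p = 0.00454, exact binomial test). Nfe2 no longer passed the test without replicate 1 or without replicate 3 (adjusted p = 0.104 and 0.194, with 1.10e-05 to 0.194 over the alternatives, exact test). Of its small MAF partners, Mafg had 132, 107 and 99.0 CPM, highest in replicate 1 and lowest in replicate 3 (adjusted p = 1.02e-09, exact test), and Mafk 37.0, 33.9 and 35.7 CPM (adjusted p = 1, exact test). Bach1, a repressor that uses the same small MAF proteins and is released by haem, had 68.1, 69.5 and 68.5 CPM (adjusted p = 1, and 0.136 with TMM scaling, exact test).

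Myb (chromosome 10, 21124935 to 21160984, minus strand), which keeps progenitors dividing and is turned down as red cells mature, had the highest mean level of the 10, by reads and per kilobase. Per kilobase, Myb lay above Lmo2 in only 1 of 3 libraries. Its levels were 268, 254 and 195 CPM in replicates 1, 2 and 3, and the interval of replicate 3 (186 to 205 CPM) lay below the others (adjusted p = 5.50e-24, exact binomial test). Without replicate 3 the difference was not called (adjusted p = 0.129, with 6.20e-24 to 0.129 over the alternatives, exact test). The ratio of Myb to Klf1 reads was 5.70, 3.33 and 3.57, and that of replicate 1 lay apart from the others. Early B cell genes, which mark another user of Myb, summed to 781, 725 and 601 CPM, also lowest in replicate 3. Of 11 tested 9 were called, against 56.5% of all genes, and 5 of 10 without replicate 3, against 38.5%. The part of early B cells in the Myb value was not tested. In GENCODE M21, 559 exonic bases of Myb overlap Gm26577 on the other strand, a gene not used here.

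**Figure D2:**
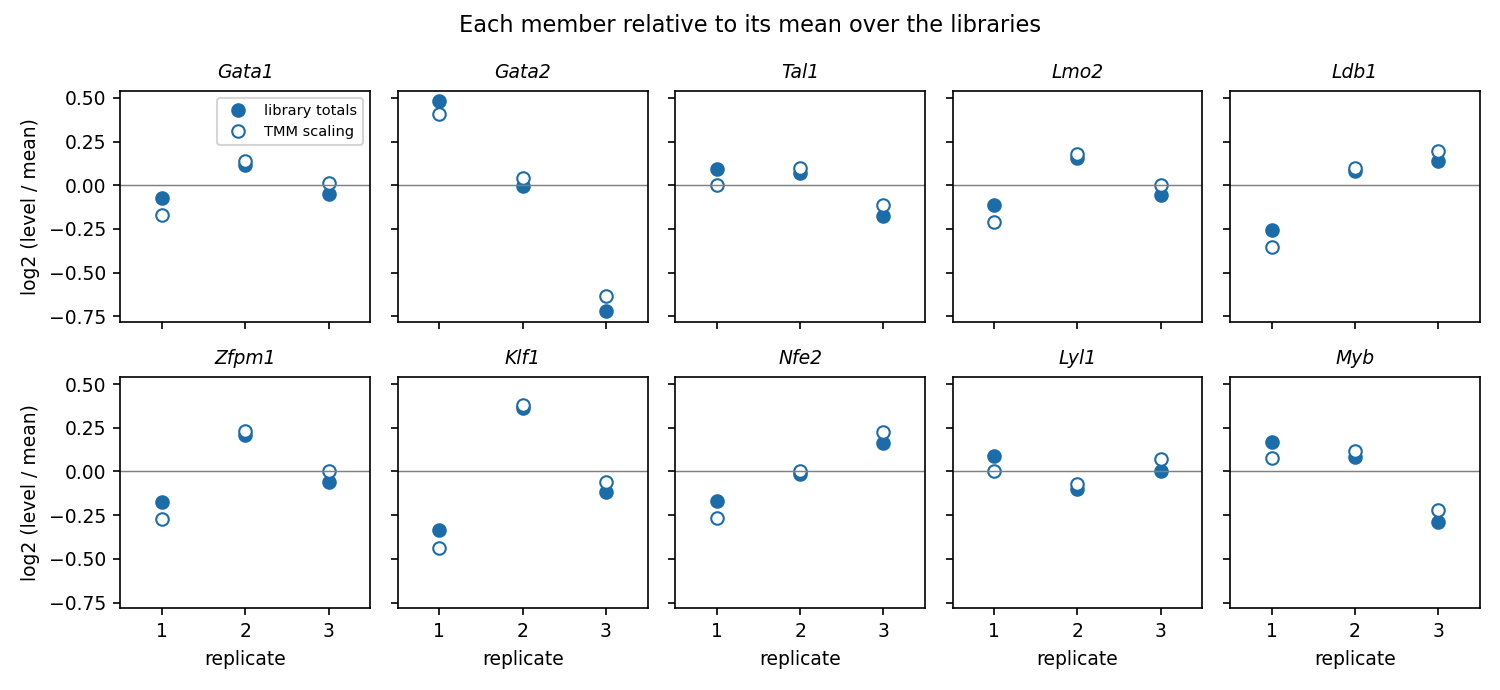
Level of each gene in each library relative to its mean over the 3 libraries (y axis, log2; x axis, replicate), with library totals (filled) and TMM scaling (open). Klf1, Zfpm1, Lmo2 and Gata1 have their highest point in replicate 2, though Gata1 did not pass the test, and Gata2 spans the widest range.

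By reads, the 10 genes fell into 5 steps whose library ranges did not overlap. Myb stood first at 239 ± 38.5 CPM (SD, n = 3), and Zfpm1, Tal1 and Lmo2 followed at 127 ± 17.8, 118 ± 11.9 and 109 ± 10.9 CPM, with overlapping ranges. Klf1, Nfe2 and Lyl1 also overlapped, at 59.3 ± 15.2, 58.7 ± 6.84 and 55.6 ± 3.64 CPM. Gata1 stood alone at 29.6 ± 2.14 CPM, and Gata2 and Ldb1 overlapped at 12.3 ± 4.84 and 10.02 ± 1.42 CPM. The kit name in the labels is that of a method that reads transcript ends, where reads do not grow with length, but the catalogue number beside it may be that of a kit that covers whole transcripts. The files do not settle which was used, so neither order of levels can be preferred. Over 11336 genes, reads and length of the longest transcript had a Spearman rho of 0.08, a description across genes, which are not independent replicates.

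Per kilobase of longest transcript, Myb and Lmo2 were highest and overlapped, at 64.7 ± 10.4 and 63.6 ± 6.37 CPM per kilobase (SD, n = 3). Myb was the higher of them in 1 of 3 libraries. Klf1, Zfpm1, Nfe2, Lyl1 and Tal1 then ran from 38.8 to 27.9 CPM per kilobase with overlapping neighbours, and Gata1 followed at 15.6 ± 1.12, apart from both its neighbours. Gata2 and Ldb1 were last on this scale too, at 3.43 ± 1.36 and 3.20 ± 0.454 CPM per kilobase. Both scales therefore put Gata1 above Gata2 and Ldb1 in 3 of 3 libraries. They differ on Tal1, whose transcript of 4213 bases is the longest of the 10: it had 2.12 times the reads of Lyl1 on average but 0.906 times its level per kilobase. The ratio per kilobase was 0.904, 1.02 and 0.797 in replicates 1, 2 and 3.

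**Figure D3:**
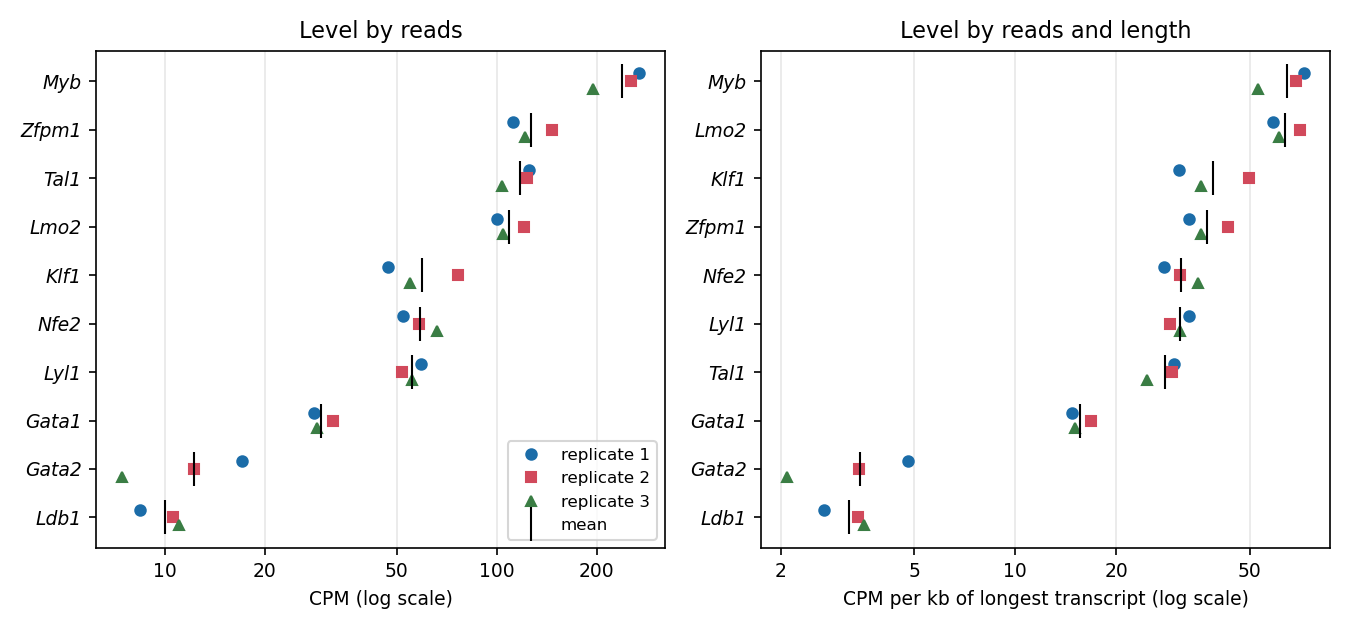
Levels of the 10 genes in each library, as CPM (left) and as CPM per kilobase of the longest annotated transcript (right), both on log axes; bars mark the mean of 3 libraries. Gata1 lies above Gata2 and Ldb1 in both panels, and Tal1 moves from rank 3 to rank 7.

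Most of the genes that these factors switch on in red cells were lowest in replicate 1. Of 38 measured genes on a list of 39 erythroid targets, 29 were called, against 56.5% of all genes. In replicate 1, 27 of 38 had their lowest level, against 20% of all genes. With TMM scaling 32 of 38 were called, against 52% of all genes, and 31 of 38 were lowest there, against 32.6%. Highest levels fell to replicate 2 for 23 genes and to replicate 3 for 13, against 27.9% and 22.8% of all genes. With TMM scaling these counts were 20 and 17, against 33.5% and 33.4% of all genes. Without replicate 1, 19 of 38 were called, and 20 without replicate 2 and 26 without replicate 3. The shares of all genes were 34.8%, 39% and 38.5% in that order. The list's median level in replicate 1 was -0.16 on the log2 scale relative to each gene's mean, against -0.09 for the 10 regulators.

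Among the targets, the globin genes Hba-a1, Hbb-bs and Hbb-bt had the most reads, and Hbb-bt had 8303, 12988 and 12208 CPM in replicates 1, 2 and 3. Near-identical globin copies share reads, so the split between them is uncertain. The erythropoietin receptor gene Epor had 12.8, 19.5 and 13.1 CPM, highest in replicate 2 as Klf1 was (adjusted p = 0.00100, exact binomial test, and 0.905 without replicate 2). Bcl2l1, which encodes the survival factor BCL-XL, had 42.8, 77.5 and 77.9 CPM, with replicates 2 and 3 above replicate 1 (adjusted p = 1.84e-25, and 0.969 without replicate 1, exact test). Ppox, an enzyme of haem synthesis, had 10.03, 10.9 and 18.8 CPM, with replicate 3 apart from the others (adjusted p = 1.0e-06, and 0.720 without replicate 3, exact test). The targets with the widest spread thus had their high libraries in different places.

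**Figure D4:**
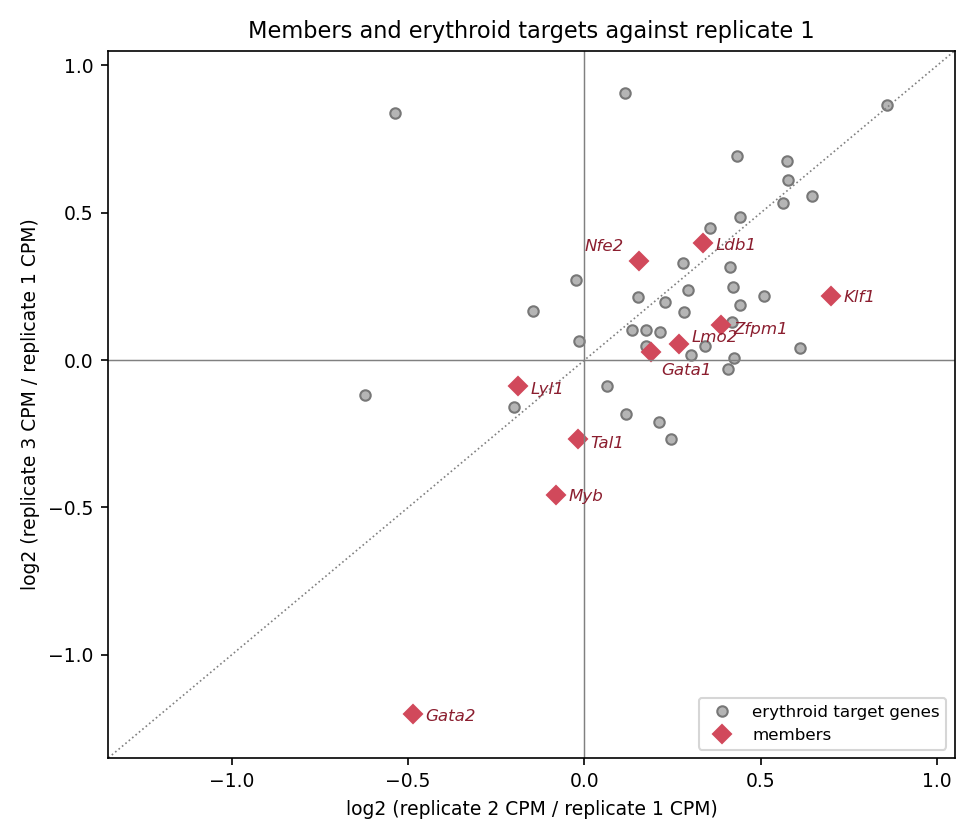
Log2 change from replicate 1 to replicate 2 (x axis) and to replicate 3 (y axis) in CPM, for the 10 regulators (diamonds) and 38 erythroid target genes (circles); replicate 1 enters both axes, so points tend to line up along the dotted diagonal. Most targets lie up and to the right of the origin, Klf1 lies far to the right, and Gata2 lies low.

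Platelet and eosinophil genes, which GATA1 also serves, were read the same way. Of 16 tested megakaryocyte genes 14 were called, against 56.5% of all genes. In replicate 3, 10 of the 16 were lowest, against 42.4% of all genes, on TMM scaling also 10, against 32.7%. Without replicate 1, 8 of 14 tested were called, and without replicate 3, 7 of 15, against 34.8% and 38.5% of all genes. The platelet glycoprotein gene Gp5 had 25.4, 19.7 and 14.4 CPM and the platelet chemokine gene Ppbp 132, 95.7 and 74.6 CPM (adjusted p = 5.05e-05 and 3.75e-27, exact binomial test). Another platelet glycoprotein gene, Gp1bb, was instead highest in replicate 3, at 103, 82.0 and 122 CPM (adjusted p = 2.10e-11, exact binomial test), 1 of 4 such genes among the 16. Eosinophil genes summed to 2108, 1040 and 2736 CPM in replicates 1, 2 and 3. Gata1 had 28.1, 32.1 and 28.7 CPM and did not pass the test. In replicate 2, 6 of 9 tested eosinophil genes were lowest on both scales, against 37.6% of all genes, or 34.8% with TMM scaling. The eosinophil granule genes Prg2 and Epx had 1219, 586 and 1560 CPM and 174, 68.0 and 217 CPM, while the surface receptor gene Ccr3 had 15.7, 18.6 and 17.5 CPM (adjusted p = 0.645, exact test). The part of eosinophils in the Gata1 value was not tested.

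Among 146 genes of the lists and of the 10 with at least 300 reads, those nearest in pattern over the 3 libraries were found by the distance between log2 levels centred on their mean. Among the genes near Gata1 were Slc25a38, which encodes a mitochondrial glycine carrier used in haem synthesis, at 25.6, 29.7 and 27.4 CPM and a distance of 0.0479, and Lmo2, at 0.0563. Nearest to Klf1 were Klf4, a monocyte-linked factor gene, at 0.112 and 169, 286 and 184 CPM, and Epor at 0.126. Monocyte and macrophage genes, the list that holds Klf4, summed to 1365, 1459 and 1538 CPM. Of these 8 genes 6 were called, against 56.5% of all genes, and 2 of 8 without replicate 3, against 38.5%. Nearest to Myb were Fli1, a megakaryocyte and progenitor factor gene, and Tcf3, at 0.0440 and 0.0453. For Gata2 the nearest were the collagen gene Col1a2 at 0.262, with 94.2, 72.8 and 52.6 CPM, then Gp5 at 0.280. The distance grows with a gene's spread and counting error, both large for Gata2, so its size cannot be compared between the genes. With 3 libraries, such distances describe these samples only.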

How the data were processed

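Per the labels, RNA was extracted with Trizol and 500 ng entered a library kit labelled as Lexogen Quant-Seq. Bowtie2, bedtools and mm10 are named in the submitters' processing notes; versions, gene annotation, strand setting and normalization: not given in the sources used here. The authors deposited 1 file per library of log2 values. Their steps fit log2(x + 1), where x counts reads per 1000000 of a library size that the authors had scaled. All values (100%) were whole multiples of what 1 read is worth (relative tolerance 1e-06), so reads were recovered. The design had assumed reads, and its exact test ran on the recovered ones.

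Tests, scalings (TMM trimming 30% of ratios and 5% of intensities) and intervals were computed in Python 3.11.15 with scipy 1.17.1, and tested on simulated data. At these depths a count of 0 allows up to 0.327 to 0.370 CPM per library (3 reads). Gene positions, lengths and overlaps are from GENCODE M21 (GRCm38), upstream sequence from RefSeq (GRCm38.p6).

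The members and lists were chosen with earlier results of these data known. Named are the 10 genes and, per list, from its 3 most abundant members and the 3 called members with the largest CV and at least 300 reads, and the genes nearest in pattern to Gata1, Gata2, Klf1 and Myb; Tcf4, Ssbp3, Cbfa2t3, Mafg, Mafk, Bach1, Ccr3, Ms4a2, Kit, Cma1, Tpsb2, Tpsab1, Gata3 and the 6 relatives at 0 reads were chosen after their values were seen, and the listed Epb41 and Mpig6b are not analysed here. 1 gene near Gata1 in pattern is not reported here. Alternatives covered scaling, a chi-square test, read minimums, the pseudocount, transcript length and leaving out each library.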

Additional observations from a re-analysis of the deposited data

How the results depend on the processing

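The number of genes called over the whole table, 6687, ranged from 3866 to 4392 when 1 library was left out, and the number of the 10 regulators called, 7, from 4 to 6; fewer samples enter these tests. Other scalings, read minimums and the chi-square test left both counts within 1.5 times. Per kilobase of longest transcript, which divides by the lengths, the mean log2 ratio of Tal1 to Lyl1 turned from 1.08 to -0.15 and that of Lmo2 to Tal1 from -0.12 to 1.19. It moved to 2.26 for Gata1:Gata2, 4.32 for Lmo2:Ldb1, 1.26 for Zfpm1:Gata1, 0.84 for Tal1:Gata1, -2.29 for Ldb1:Gata1, 1.29 for Klf1:Gata1, 2.04 for Myb:Gata1 and 0.76 for Myb:Klf1, with no change of direction. Of the ratios that turned, Tal1 to Lyl1 per kilobase was 0.904, 1.02 and 0.797 in replicates 1, 2 and 3. Lmo2 to Tal1 by reads was above 1 in 1 of 3 libraries. On those scales the libraries thus lay on both sides of equal levels. Every ratio moved by less than its SD over libraries when 1 CPM was added before the log. Leaving out 1 of 3 libraries cannot move a mean by as much as the SD, so it gives no such check. No paired analysis was possible because only 1 group is given. Depth limits Ldb1 and Gata2 most, where counting alone gives a CV of 10.7% and 9.62%.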

Other observations

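Of 16 relatives of these genes outside the 10, Gata4, Gata5, Gata6, Lmo3, Zfpm2 and Klf17 had 0 reads in all 3 libraries, which allows up to 0.114 CPM over the libraries together if their reads could be counted. Gata3, the T cell and innate lymphoid member, had 3.16, 3.21 and 1.31 CPM in replicates 1, 2 and 3. Klf2, a factor of resting lymphocytes and endothelium, had the most reads of the 16, at 320, 430 and 361 CPM, highest in replicate 2 on both scales (adjusted p = 2.18e-25, exact binomial test). Nfe2l2, the oxidative stress relative of Nfe2, had 103, 98.8 and 94.7 CPM (adjusted p = 0.454, exact binomial test).

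Proliferation genes, read beside Myb, were measured for 10 of 10. Of these 7 were called, against 56.5% of all genes. The count was 4 without replicate 1, 5 without replicate 2 and 7 without replicate 3. The shares of all genes were 34.8%, 39% and 38.5% in that order. The proliferation marker gene Mki67 had 1159, 1340 and 1051 CPM, and the replication licensing gene Mcm3 197, 193 and 151 CPM. On library totals 7 of 10 were lowest in replicate 3, as Myb was, against 42.4% of all genes; with TMM scaling 2 of 10 were, against 32.7%.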
